A study of Mus musculus with 22 samples.

Results

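The transforming growth factor beta (TGF-beta) ligands, their receptors and the SMAD proteins were examined as 10 genes out of 21887 protein-coding genes of the mouse. They were the ligand genes Tgfb1, Tgfb2 and Tgfb3, the receptor genes Tgfbr1, Tgfbr2 and Tgfbr3, and the SMAD genes Smad2, Smad3, Smad4 and Smad7. The genes were taken from a list by name and not by a cut on any measured value. The list was chosen with earlier results of these data known. For each gene a window was formed from the gene body and 10 kb on each side, on GRCm38, and its coverage was the percent of the window's bases lying in deposited ChIP-seq regions. A gene-end region was a region within 1 kb of either end of the gene.

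TGF-beta is a secreted cytokine that is held latent in the matrix until it is released. The active ligand brings the kinase receptors TGFBR2 and TGFBR1 together, helped by the co-receptor betaglycan (TGFBR3). The receptors phosphorylate SMAD2 and SMAD3, which join SMAD4 and enter the nucleus, while SMAD7 is induced by the pathway and inhibits its receptors. In dermal fibroblasts the pathway is known for driving collagen production and the contractile state of wound repair.

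Chromatin immunoprecipitation with sequencing (ChIP-seq) had been done in 2 kinds of mouse dermal fibroblasts, wildtype (WT) cells and cells without Lap2alpha (KO), the LAP2 protein of the nuclear interior that binds A-type lamins. Both genotypes were probed for lamin A/C, with 2 antibodies called 3A6 and E1, and for BRG1 and CHD4, the motor subunits of the SWI/SNF and NuRD remodelling complexes. Lap2alpha was probed in WT with the antibody 1H11. Chromatin crosslinked with DSG and formaldehyde was sonicated for 16 or 20 cycles. Each combination was 1 library, so the 18 region lists formed 8 matched pairs of KO and WT with no replicate, and no test was run. How the knockout was made, and whether each line was 1 clone, is not given in the sources used here. Region lists of these antibodies do not check the deletion.

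List lengths ran from 7283 regions for KO CHD4 to 233769 for KO E1, both at 20 cycles, and read depth is unknown. Of 8 fibroblast marker genes, among them Col1a1, Col1a2 and Pdgfra, 7 had a BRG1 gene-end region in all 4 BRG1 libraries (33.9% of all genes had), and of 8 markers of keratinocytes, endothelium, leukocytes and melanocytes none had. BRG1 regions show binding and not expression, so they check the labelled cell type only in part. The lists were also of unlike form. In 11 of them no intervals overlapped, and where intervals of any 2 of these lists overlapped, 70.5% to 88.9% had the same centre to the base. The 4 E1 lists and the KO CHD4 list at 20 cycles shared 88.0% to 93.1% of centres among themselves and 0 to 1.60% with the 11 lists. The KO 3A6 and KO BRG1 lists at 20 cycles shared 85.0% with each other and 29.6% to 41.2% with the 11. The pairs of 3A6, BRG1 and CHD4 at 20 cycles therefore set lists of unlike form against each other, whereas the other 5 pairs did not. Values are given for each pair, and co-located edges of 2 lists are not independent observations.

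The promoters of 5 of the 10 genes were in the RefSeq promoter table (build GRCm38.p6), with 2 start sites for Tgfbr1. They are shown because BRG1 lay on some of them in every BRG1 library and on others in none. Each sequence is the 250 bases before the start site, 5′ to 3′ on the gene's strand. Capitals mark matches, on either strand, to CAGAC (the core of the SMAD-binding element), GGGCGG (the GC box), CCAAT and TATAAA; the AP-1 motif TGANTCA was also searched.

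Tgfb1, chr7:25686752-25687001, plus strand: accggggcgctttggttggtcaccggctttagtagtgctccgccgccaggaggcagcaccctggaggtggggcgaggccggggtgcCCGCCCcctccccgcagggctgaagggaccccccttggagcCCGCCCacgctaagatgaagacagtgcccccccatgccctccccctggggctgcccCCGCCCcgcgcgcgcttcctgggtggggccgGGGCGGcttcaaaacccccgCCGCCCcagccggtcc

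Tgfb2, chr1:186705990-186706239, minus strand: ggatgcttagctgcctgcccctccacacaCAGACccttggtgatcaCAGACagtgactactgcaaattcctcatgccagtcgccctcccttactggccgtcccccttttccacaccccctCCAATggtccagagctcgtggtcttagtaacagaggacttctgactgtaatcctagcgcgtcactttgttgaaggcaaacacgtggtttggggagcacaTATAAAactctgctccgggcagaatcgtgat

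Tgfbr1 (the first start site), chr4:47352972-47353221, plus strand: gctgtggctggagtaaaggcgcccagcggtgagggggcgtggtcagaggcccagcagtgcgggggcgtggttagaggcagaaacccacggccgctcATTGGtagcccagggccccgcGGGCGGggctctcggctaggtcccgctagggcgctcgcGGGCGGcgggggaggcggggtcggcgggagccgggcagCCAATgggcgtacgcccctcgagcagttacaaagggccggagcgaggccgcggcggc

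Tgfbr2, chr9:116175364-116175613, minus strand: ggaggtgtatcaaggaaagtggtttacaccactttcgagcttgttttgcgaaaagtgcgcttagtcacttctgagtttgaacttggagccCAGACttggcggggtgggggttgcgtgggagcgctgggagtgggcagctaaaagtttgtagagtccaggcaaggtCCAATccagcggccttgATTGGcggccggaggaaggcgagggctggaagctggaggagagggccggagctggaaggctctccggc

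Smad3, chr9:63757995-63758244, minus strand: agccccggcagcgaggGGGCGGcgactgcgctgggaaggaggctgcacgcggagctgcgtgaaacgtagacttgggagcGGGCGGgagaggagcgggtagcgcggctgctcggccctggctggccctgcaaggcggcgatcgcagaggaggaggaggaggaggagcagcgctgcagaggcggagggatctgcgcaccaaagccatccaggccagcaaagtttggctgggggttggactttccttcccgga

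GC boxes stood in the promoters of Tgfb1, Tgfbr1 (the first start site) and Smad3, 3 of 6 start sites, against 32.7% of all 32851 promoters. The CAGAC core stood in those of Tgfb2, Tgfbr2 and the second Tgfbr1 start, against 42.2% of all promoters. CCAAT was found in those of Tgfb2, Tgfbr1 and Tgfbr2 (33.8% of all), TATAAA in that of Tgfb2 (12.4% of all) and TGANTCA in none of the 6 (6.75% of all). The 3 with GC boxes were rich in G and C, at 75.2% in Tgfb1, 74.8% in Tgfbr1 and 69.2% in Smad3, against a median of 52.4% over all promoters. No 2 of these motifs overlap in sequence at the matches shown. A match is a stretch of letters and not a measured binding site.

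BRG1 occupied the promoter window (these 250 bases and the 50 after the start) in 4 of 4 libraries at Tgfbr2 and at Smad3. At Tgfbr2, which encodes the ligand-binding kinase receptor, all 300 bases of the window were covered in each of the 4 libraries. At Smad3, a receptor-activated SMAD, all 300 bases were covered in 3 libraries and 105 in WT at 16 cycles. The first start site of Tgfbr1 had a BRG1 region in 3 libraries, and in KO at 20 cycles the nearest ended 429 bp from the start. Tgfb1 had none in any library, the nearest region lying 6133 bp from the start in WT at 16 cycles and 718 to 983 bp in the others. Tgfb2 had 1, in KO at 20 cycles, and in the other libraries the nearest BRG1 region ended 69 to 252 bp inside the gene. Over all promoters of the table the share with a BRG1 region was, at 16 and 20 cycles, 17.9% and 36.4% for WT and 32.7% and 32.3% for KO. CHD4 regions lay in the windows of Tgfbr1, Tgfbr2 and Smad3 in WT at 20 cycles and KO at 16 cycles, and in that of Tgfb1 in KO at 16 cycles. Over all promoters the CHD4 share was, at 16 and 20 cycles, 6.54% and 29.7% for WT and 23.6% and 0.971% for KO. Neither lamin A/C nor Lap2alpha had a region in any of these promoter windows, and few of all promoters had one. The share ran from 0.31% to 3.66% over the lamin A/C libraries and was 1.44% and 4.63% for Lap2alpha at 16 and 20 cycles.

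BRG1 was found in the windows of all 10 genes in all 4 BRG1 libraries, as it was for 60.5% of all protein-coding genes. The amount differed widely among the genes, and Smad3 and Smad7 stood highest. Their coverage lay above that of 96.7% to 98.6% (Smad3) and 99.1% to 99.8% (Smad7) of all genes in each library. At 16 and 20 cycles the mean of the 10 genes was 4.26% and 11.9% for WT and 8.73% and 9.73% for KO, and the median 2.25%, 9.28%, 5.64% and 5.37% in the same order. Over all genes the medians were 1.2%, 4.95%, 3.59% and 3.91%. As a ratio to the mean of all genes, the mean of the 10 genes stayed between 1.80 and 1.95 in the 4 libraries.

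The ligand genes had moderate BRG1 coverage. Tgfb1, the main isoform in most tissues, lies at chr7:25687002-25705077, and its window also holds Tmem91, B9d2 and Ccdc97. It was covered at 2.09% (WT) and 6.02% (KO) at 16 cycles, and 11.6% (WT) and 6.55% (KO) at 20 cycles. The WT libraries thus lay on both sides of the KO libraries, a pattern that recurred in most of the genes. Tgfb2 (chr1:186622787-186709697), the isoform known for its role in heart and palate development, differed least among the ligands, at 3.46% and 5.26% in WT and KO at 16 cycles and 5.32% and 5.60% at 20 cycles. Tgfb3 (chr12:86056743-86079041, window shared with Ttll5 and Ift43), the isoform needed for palate fusion, was at 0.998% and 7.49% at 16 cycles and 10.0% and 5.15% at 20 cycles.

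Among the receptors, Tgfbr3 had the highest BRG1 coverage in every library. Tgfbr1 (chr4:47353222-47414926), the signalling kinase receptor, was covered at 1.91% (WT) and 3.36% (KO) at 16 cycles, then at 7.61% (WT) and 3.33% (KO) at 20 cycles. Tgfbr2 (chr9:116087695-116175363) was at 2.40% and 4.05%, then at 8.53% and 5.14%. For both receptors the WT library at 20 cycles was the highest and the WT library at 16 cycles the lowest. Tgfbr3 (chr5:107106567-107289629), the longest of the genes, was at 6.0% and 10.1%, then at 11.7% and 10.9%.

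The SMAD genes held both extremes. Smad2 (chr18:76241090-76311748) was covered at 1.41% (WT) and 2.12% (KO) at 16 cycles, then at 3.84% (WT) and 2.80% (KO) at 20 cycles. Smad4 (chr18:73634790-73703791), the common partner SMAD, was similar, at 0.856% and 2.71%, then 4.69% and 2.86%. These genes lay below the all-gene mean in every BRG1 library. Smad3 (chr9:63646766-63757994, window shared with Aagab) was at 9.56% and 19.4%, then at 25.4% and 22.4%. Smad7 (chr18:75367365-75395935), the inhibitory SMAD, was at 13.95% and 26.9%, then at 30.6% and 32.6%, so that both KO libraries were above the WT library of the same cycles. The plot of coverage by gene shows these values.

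**Figure D1:**
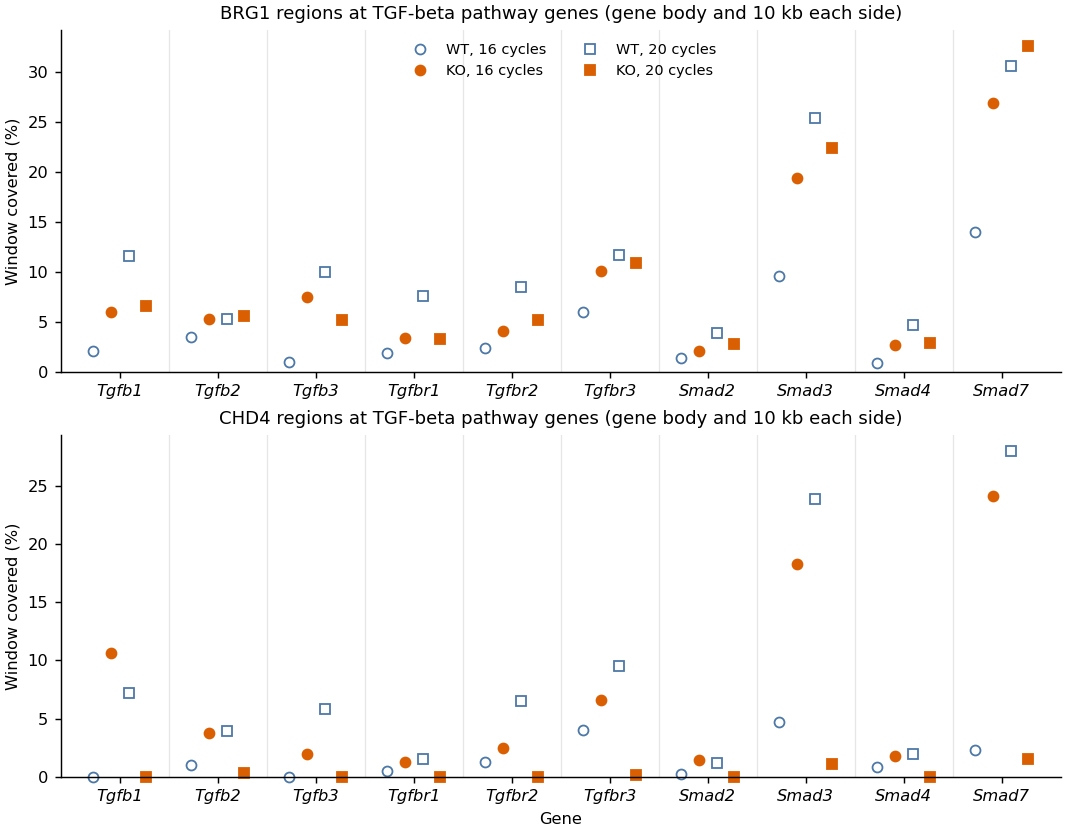
Percent of each gene's window covered by BRG1 regions (upper panel) and CHD4 regions (lower panel). Each point is 1 library, open for WT and filled for KO, circles for 16 and squares for 20 cycles; there are no error bars because each group is 1 library. Smad3 and Smad7 stand highest in both panels, except that Tgfbr3 is above Smad7 for CHD4 in WT at 16 cycles, and the KO CHD4 points at 20 cycles lie at or near 0.

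The direction of the mean BRG1 difference was opposite in the pairs at 16 and 20 cycles, and the lists of the pair at 20 cycles are of unlike form. At 16 cycles, where both lists have the same form, coverage was higher in KO at 10 of 10 genes (background over all genes 70.5%; 80.3% of the 9518 genes with windows of 38.1 to 203 kb, the range of the 10 genes), by 0.71 (Smad2) to 12.9 percentage points (Smad7). At 20 cycles it was lower in KO at 8 of 10 genes (background 59.6%), by up to -5.00 points at Tgfb1. Both directions together held for 8 of 10 genes (background 46.1%; 52.4% in that range). Only Tgfb2 and Smad7 were higher in KO in both pairs, 2 of 10 genes against 23.9% of all genes, and none was lower in both, against 6.75%. The difference of the mean of the 10 genes was 1.14 ± 4.71 points (SD, n = 2 pairs), 4.47 at 16 cycles and -2.19 at 20 cycles, so it did not exceed the spread between pairs. Over all genes it was 0.82 ± 2.60 points, with 2.66 at 16 cycles and -1.01 at 20 cycles. The KO list was the longer at 16 cycles (107321 against 72225 regions) and the shorter at 20 cycles (175641 against 205999). With each pair cut to the same number of widest regions, 10 genes were higher in KO at 16 cycles and 8 lower at 20 cycles. That cut drops only the narrowest regions of the longer list and changed its coverage little. Smad7 stayed at 26.9% in KO at 16 cycles, and Smad3 went from 25.4% to 25.0% in WT at 20 cycles. The part of list length in the split was therefore not tested. The histogram of BRG1 differences places the 10 genes among all genes.

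**Figure D2:**
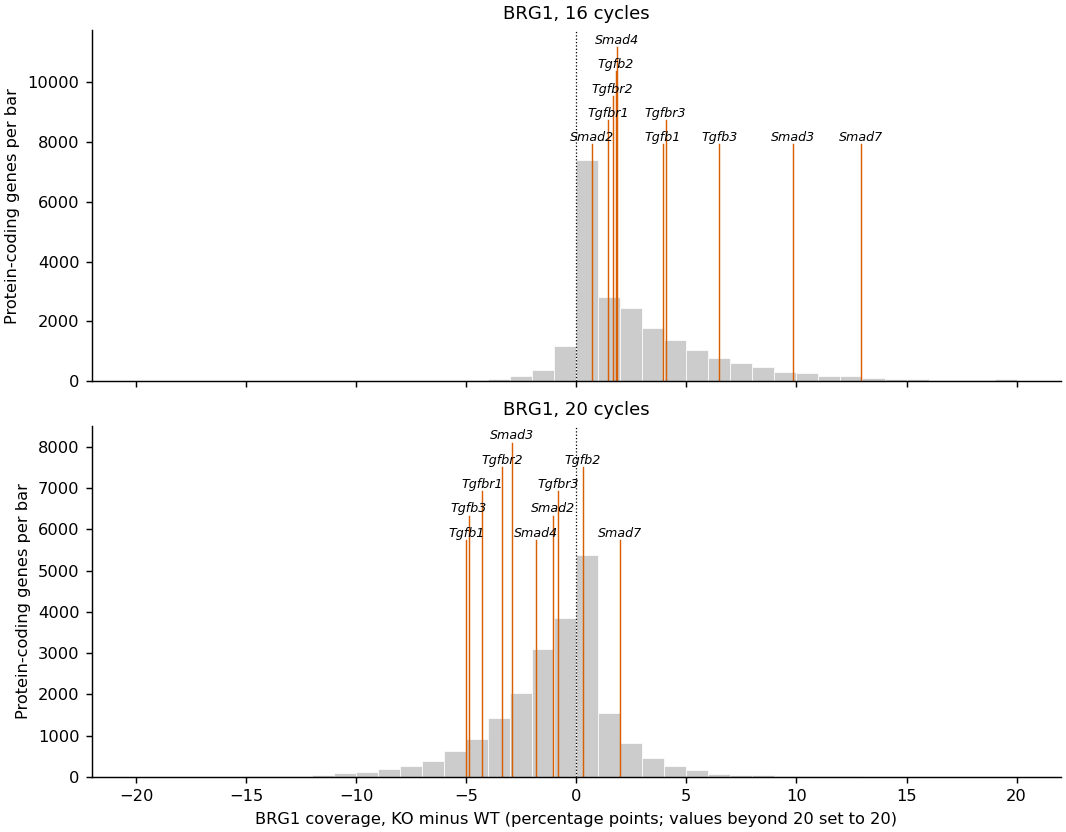
Number of protein-coding genes (grey bars, y axis) by BRG1 coverage difference, KO minus WT, in percentage points (x axis, bars of 1 point; genes with no difference fall in the bar that starts at 0), at 16 cycles (upper) and 20 cycles (lower). Orange lines mark the 10 genes: all lie to the right of 0 at 16 cycles, and 8 lie to its left at 20 cycles.

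Stretches covered by BRG1 in all 4 libraries, regardless of genotype and sonication, were present in each of the 10 genes and were most numerous in Smad3. There 18 such stretches, from 26 to 1014 bp wide, made up 9.34% of the window, more than in 98.9% of all genes. On 12 of the 18 lay CHD4 regions of WT at both lengths and of KO at 16 cycles. Smad7 held 8 of them over 9.54% of its shorter window, above 99.0% of genes, and Tgfbr3 held 13 over 4.75%, above 93.1%. The remaining genes held between 1 and 5. The mean over the 10 genes was 3.08% and over all genes 1.41%, and the medians were 1.63% and 0.57%. Where intervals of the BRG1 lists other than KO at 20 cycles overlapped, 76.6% to 86.6% had the same centre to the base. With the KO list at 20 cycles the share was 34.9% to 40.3%. The stretches show recurrent calls and not a measured width of binding.

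Gene-end regions of BRG1 were present in all 4 libraries at 7 of the 10 genes (background 33.9%; 45.2% of genes in the same range of window length). The exceptions were Tgfb1, Tgfb2 and Smad2. Tgfb2 had no BRG1 region within 1 kb of either annotated end in any library, although its BRG1 regions ended within 252 bp of the RefSeq start site that lies inside the annotated gene. Smad2 and Tgfb1 had one in the other 3 libraries and none in WT at 16 cycles, where 7 of 10 genes had one (background 36.2%).

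CHD4 coverage was also highest over Smad3 and Smad7, except in WT at 16 cycles, where Tgfbr3 stood above Smad7. Smad7 was covered at 2.33% (WT) and 24.1% (KO) at 16 cycles, then at 27.9% (WT) and 1.49% (KO) at 20 cycles. Smad3 was at 4.72% and 18.3%, then at 23.9% and 1.09%. For Tgfb1 the WT values were 0 and 7.18% and the KO values 10.6% and 0, at 16 and 20 cycles. Among the receptors, Tgfbr3 stood highest, at 4.04% and 9.49% in WT and 6.59% and 0.172% in KO. Tgfbr2 was at 1.23% and 6.51% in WT and 2.49% and 0 in KO, and Tgfbr1 did not exceed 1.49% in any library. Smad2 and Smad4 did not exceed 1.43% and 1.95%.

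CHD4 coverage was higher in KO at 16 cycles at 10 of 10 genes (background 68.1%; 78.4% of genes with windows in the same range of length) and lower at 20 cycles at 10 of 10 genes (background 76.5%; 87.1% in that range). Both held for 64.4% of all genes. The difference of the mean of the 10 genes was -1.45 ± 10.2 points (SD, n = 2 pairs), 5.74 at 16 cycles and -8.63 at 20 cycles. The latter value rests on the KO list of 7283 regions. In that list 6 of the 10 windows were empty, and of all genes only 19.9% had a region in the window. CHD4 gene-end regions stood at 9 of 10 genes in WT at 20 cycles (background 54.7%), 2 in WT at 16 cycles (17.6%), 7 in KO at 16 cycles (47.7%) and none in KO at 20 cycles (4.09%). Of the BRG1-covered bases of Smad3, 49.2% (16 cycles) and 67.7% (20 cycles) also lay in CHD4 regions of the same library type in WT, and 72.3% and 4.45% in KO. Among the other genes the shares ran from 0 to 54.5% and from 19.1% to 64.0% in WT. In KO they ran from 10.6% to 66.6% and from 0 to 3.52%. The CHD4 coverage of each window was not taken into account.

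Lamin A/C was almost absent from the WT lists over these genes. At 9 of the 10 genes the 4 WT libraries gave no region in the window, as for 71.8% of all genes. The exception was Smad3, with 1 region of 252 bp (chr9:63758295-63758546) in WT 3A6 at 20 cycles, or 0.192% of its window. That region began 301 bp upstream of the Smad3 start site and overlapped BRG1 regions of all 4 libraries. It was also the only WT gene-end region, at 1 of 10 genes against 12.4% of all genes.

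The number of windows with a lamin A/C region in KO varied from 0 to 9 between libraries. In KO 3A6 at 16 cycles 9 of 10 windows held a region (background 75.6%; 87.9% of genes with windows of that length), and at 20 cycles 5 of 10 (60.3%; 69.9%). In KO E1 at 16 cycles 4 of 10 held a region (31.7%; 34.2%), and at 20 cycles none of 10 (28.7%; 26.3%). In total 8 of 10 genes had no region in WT and at least 1 in KO, against 55.4% of all genes and 65% of those with windows in the same range. At Tgfb1 none of the 8 lamin A/C libraries gave a region, as at 16.5% of genes.

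Tgfbr1 had the largest values with 3A6, and Smad4 with E1. The Tgfbr1 window was uncovered in all 4 WT libraries. In KO 3A6 it was 3.00% covered at 16 cycles (9 regions) and 1.27% at 20 cycles (4 regions). In KO E1 it was 0.242% covered at 16 cycles (1 region) and 0 at 20 cycles. Tgfbr2 was likewise at 0 in WT and at 1.41%, 0.498%, 0.409% and 0 in KO in that order. Every KO value of these receptors was above the WT value of its pair, except in the E1 pair at 20 cycles, where both were 0. Tgfbr3, though longer, was at 0.248% and 0.106% in KO 3A6 and at 0 with E1.

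Among the ligands only Tgfb2 had lamin A/C regions in more than 1 KO library, at 1.31% and 0.591% with 3A6 at 16 and 20 cycles. Tgfb3 had 1 region, 0.468% of its window, in KO 3A6 at 16 cycles. Of the SMAD genes, Smad2 was at 0.644% and 0.743% in KO 3A6 at 16 and 20 cycles. Smad4 was at 0.663% in KO 3A6 and 0.454% in KO E1, both at 16 cycles. Smad3 was at 0.619% and 0.171% in those libraries, and Smad7 at 0.408% in KO 3A6 at 16 cycles alone. The plot of lamin A/C and Lap2alpha coverage shows how the KO 3A6 library at 16 cycles supplied most of these values.

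**Figure D3:**
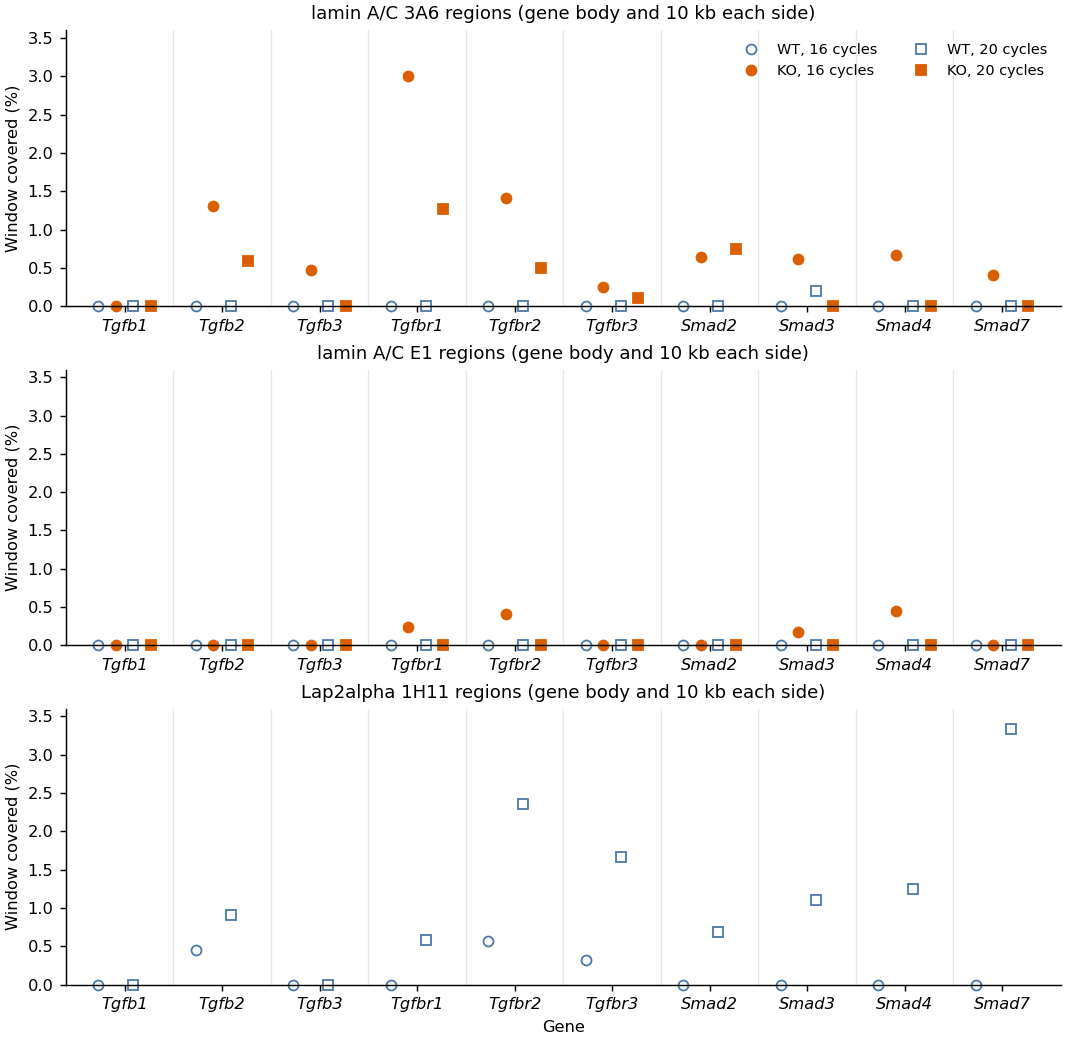
Percent of each gene's window covered by lamin A/C regions with antibody 3A6 (top) and E1 (middle) and by Lap2alpha regions (bottom, WT only). Each point is 1 library, open for WT and filled for KO, circles for 16 and squares for 20 cycles; all WT lamin A/C points are at 0 except Smad3 with 3A6 at 20 cycles.

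None of the 10 genes was more covered by lamin A/C in KO in each of the 4 pairs. The background was 13.7% of genes with windows in the same range of length, or 2452 of all 21887 genes. None was less covered in each pair, against 0.905% of all genes. At 6 of 10 genes KO was higher in at least 2 pairs and lower in none (background 47.1%; 61.9% of genes with windows in that range), and Tgfbr1 and Tgfbr2 were higher in 3 pairs and equal in 1. The mean of the 10 genes was 0.0048% ± 0.0096 in WT and 0.331% ± 0.387 in KO, and the difference was 0.33 ± 0.39 points (SD, n = 4 pairs), not larger than its spread. Over all genes the difference was 0.63 ± 0.36 points. With 3A6 the 10 genes differed by 0.877 points at 16 cycles and 0.302 at 20 cycles, and all genes by 1.05 and 0.294. With E1 the 10 genes differed by 0.128 and 0 points, and all genes by 0.369 and 0.794. The mean difference of the 10 genes was 0.143 points when the 3A6 pair at 16 cycles was left out. It was 0.335 points when the 3A6 pair at 20 cycles was left out, which leaves pairs of like form. The KO list was the longer in each pair, with 188132 against 86033 regions for 3A6 at 16 cycles. With both lists of that pair cut to the same number of widest regions, KO was higher at 4 of 10 genes and equal at 6, and the mean difference was 0.427 points.

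The KO lamin A/C regions were scattered, with little recurrence between libraries. The 10 windows held 52 of them, 35 in 3A6 at 16 cycles, 11 in 3A6 at 20 cycles and 6 in E1 at 16 cycles, each 168 to 384 bp wide. Of these 45 were in gene bodies and 7 in the flanks. Only 1 place was found in 2 KO lists, in Tgfbr1, at chr4:47368047-47368298 with 3A6 at 16 cycles and chr4:47368070-47368331 with 3A6 at 20 cycles. Over all gene windows, 20.7% of the regions of KO 3A6 at 16 cycles, 29.7% at 20 cycles and 51.9% of those of KO E1 at 16 cycles were also in another KO list. At gene ends a KO lamin A/C region was found at 2 of 10 genes, Tgfbr1 and Tgfbr3, against 39.2% of all genes.

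Co-occupancy with the other proteins was counted within the windows, an overlap being at least 1 bp. Of the 52 KO lamin A/C regions 20 lay on a BRG1 region of any library and 32 on none. On BRG1 of the same genotype and cycles lay 7 of 35 (20%) in 3A6 at 16 cycles, where the share over all gene windows was 11.4%, 3 of 11 in 3A6 at 20 cycles (8.72% over all) and 2 of 6 in E1 at 16 cycles (4.52% over all). These windows hold more BRG1 than the average gene, which was not taken into account. The 5 regions on BRG1 of all 4 libraries were in Tgfb2, Tgfbr1, Smad3 (2 regions, 1 for each antibody) and Smad7. Regions of WT Lap2alpha met KO lamin A/C regions at 4 places: chr1:186675842-186676109 in Tgfb2, chr9:116128942-116129139 in Tgfbr2, chr5:107210084-107210287 in Tgfbr3 and chr18:75391759-75391956 in Smad7. All 4 were among the 35 regions of KO 3A6 at 16 cycles. Over the whole genome the 188132 regions of that list had 9735 overlaps with Lap2alpha regions at 16 cycles and 13181 at 20 cycles. No share over all gene windows was computed for Lap2alpha, or for BRG1 of any library or of all 4, so these counts are a description. The maps of Smad3, Smad7 and Tgfbr1 show the positions.

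**Figure D4:**
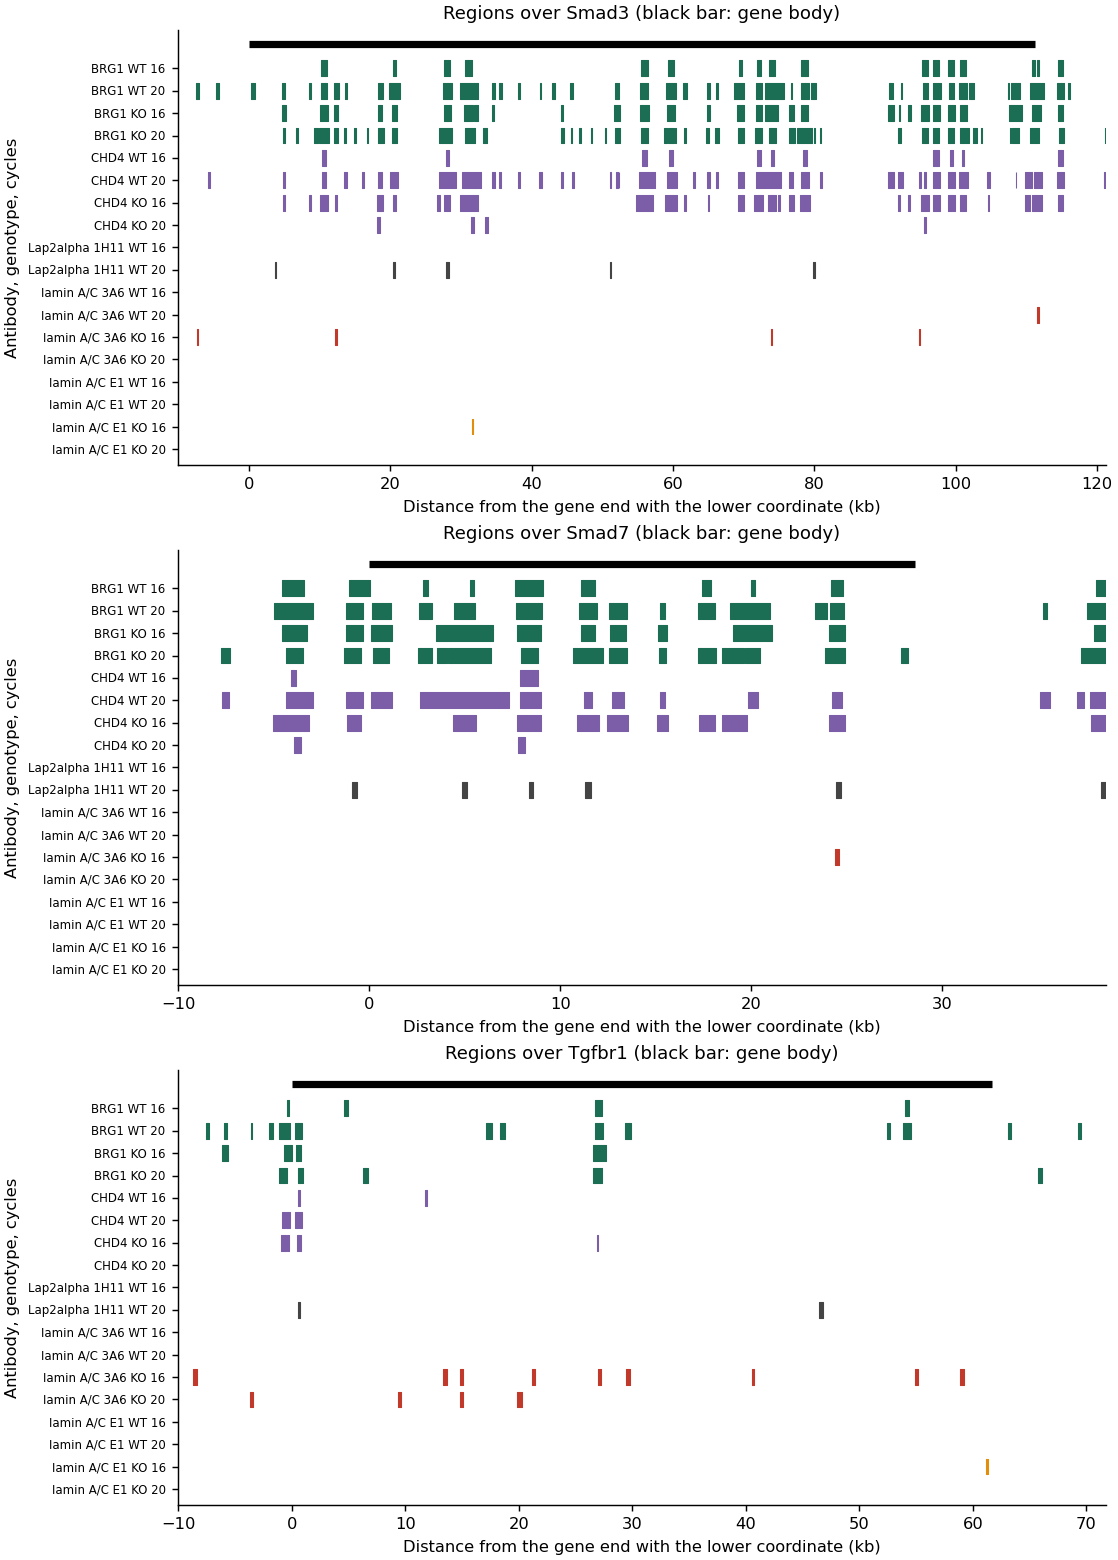
Regions over Smad3, Smad7 and Tgfbr1 in the 18 libraries (rows, labelled by antibody, genotype and cycles), by distance in kb from the gene end with the lower coordinate; the black bar is the gene body and each coloured block is 1 merged region. BRG1 recurs at the same places in Smad3 and Smad7, where many CHD4 regions of WT at 20 and KO at 16 cycles also lie. In Smad7 CHD4 has 2 regions in WT at 16 cycles and 2 in KO at 20 cycles. The lamin A/C blocks of Tgfbr1, which cover at most 3.00% of its window, mostly differ between libraries.

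At 20 cycles several windows without a lamin A/C region lay in lamin-covered surroundings. Of all genes with surroundings at least 5% covered, the window was empty at 24.8% in WT 3A6, 26.2% in WT E1 and 26.3% in KO E1. Among genes with windows in the same range of length the shares were 36.1%, 40.1% and 33.7%. In KO 3A6 they were 4.15% of all such genes and 4.06% in that range. In the 500 kb on each side of the Tgfbr2 window, lamin A/C covered 7.97% with WT 3A6, 6.27% with WT E1, 5.84% with KO 3A6 and 12.7% with KO E1, all at 20 cycles. In the window itself the values were 0, 0, 0.498% and 0. Smad4 had no region in any of these 4 libraries, beside 5.32%, 3.89%, 4.22% and 7.81% in its surroundings. The Smad2 window was empty in KO E1 at 20 cycles and its surroundings were 6.88% covered. In KO E1 at 20 cycles all 10 windows were empty, whatever their surroundings. In KO 3A6 at 16 cycles window and surroundings were 1.41% and 1.84% covered at Tgfbr2, 0.663% and 1.19% at Smad4 and 0.644% and 1.08% at Smad2. In KO E1 at 16 cycles they were 0.409% and 4.0% at Tgfbr2, 0.454% and 2.16% at Smad4 and 0 and 1.34% at Smad2. Smad3 and Smad7 lay elsewhere, with no more than 0.175% of the surroundings covered in any WT library or in KO E1, and up to 1.11% in KO 3A6.

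**Figure D5:**
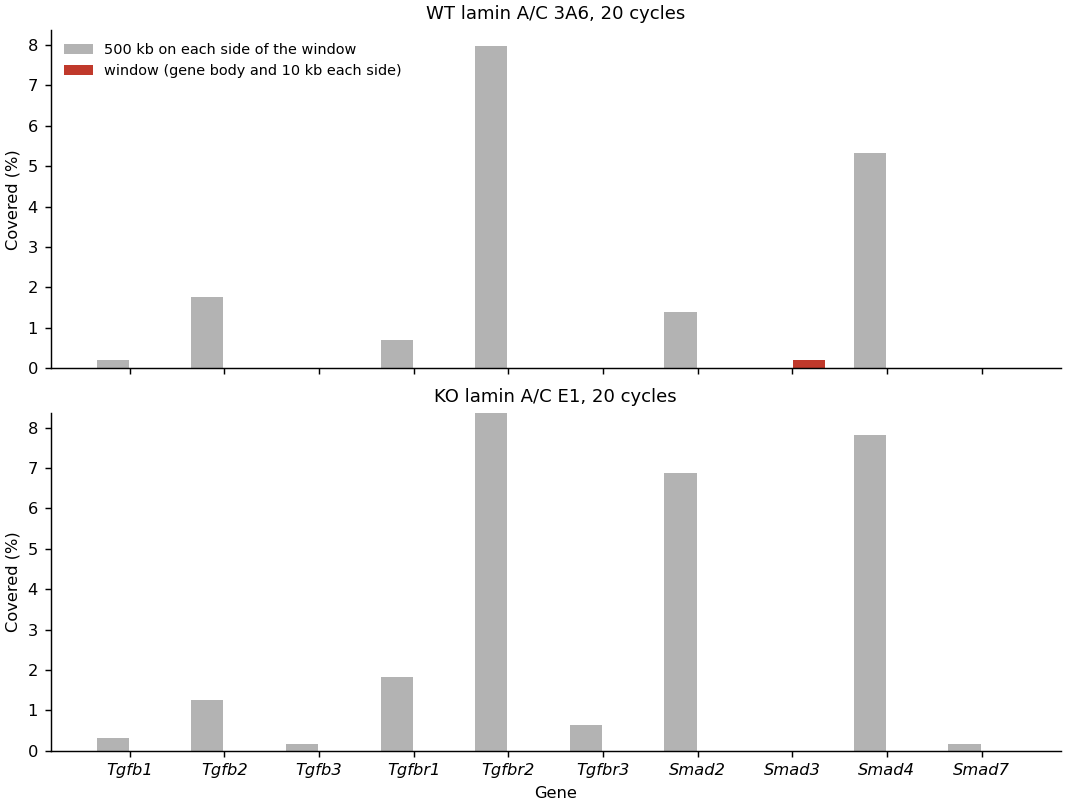
Percent covered by lamin A/C regions in the window of each gene (red bars) and in the 500 kb on each side of it (grey bars), for WT 3A6 (upper) and KO E1 (lower) at 20 cycles, 1 library each. Tgfbr2, Smad4 and, in KO E1, Smad2 have covered surroundings and no red bar; the single red bar is Smad3 in WT 3A6.

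Lap2alpha itself, mapped in WT only, covered Smad7 most. At 20 cycles its regions were found in 8 of 10 windows (background 71.5%) and at 16 cycles in 3 of 10 (39.4%). Among genes with windows in the same range of length the shares were 83.6% and 51.5%. Smad7 was 3.33% covered at 20 cycles, above 94.7% of all genes, and had no region at 16 cycles. Tgfbr2 was at 0.572% and 2.36%, Tgfbr3 at 0.325% and 1.67% and Tgfb2 at 0.457% and 0.909% at 16 and 20 cycles, the only genes with regions at both lengths. The remaining SMAD genes and Tgfbr1 had regions at 20 cycles alone, between 0.58% and 1.24%, and Tgfb1 and Tgfb3 had none. Lap2alpha gene-end regions stood at Tgfbr1, Smad4 and Smad7 at 20 cycles, 3 of 10 (background 19.9%), and at none of 10 at 16 cycles (7.61%).

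Lap2alpha and BRG1 regions overlapped in these windows. Of 42 Lap2alpha regions at 20 cycles, 21 (50%) overlapped a BRG1 region of the same library type, WT at 20 cycles, against 25.6% over all gene windows. At 16 cycles it was 2 of 8 (25%), against 15.7%. The windows of the 10 genes also hold more BRG1 than the average gene, 11.9% against 6.41% of the window in WT at 20 cycles, which these shares do not take into account. All 6 Lap2alpha regions of Smad7 lay on BRG1, 5 of them on BRG1 in all 4 libraries, among them chr18:75366466-75366711, just before the lower end of the gene. Counted against BRG1 regions of any of the 4 libraries, KO included, 9 of the 13 in Tgfbr3 and 2 of the 7 in Tgfbr2 lay on BRG1. For this looser rule no share over all gene windows was computed. The BRG1 and Lap2alpha lists of WT have the same form and share centres, and the part of this in the overlap was not tested.

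The wider pathway was read from 38 further genes in 5 lists. In all 4 lamin A/C pairs KO was higher at 2 of the 38 (2452 of all 21887 genes) and lower at none (0.905% of all genes). They were Itgb8, an integrin subunit that activates latent TGF-beta, at 0.0518% ± 0.104 in WT and 0.628% ± 0.388 in KO, and Nedd4l, a ubiquitin ligase that acts on activated SMADs, at 0.624% ± 0.72 in KO and 0 in WT (SD over the 4 libraries of a genotype). No WT lamin A/C region was found at 32 of the 38 genes (71.8% of all genes), including all 8 target genes, all 4 other SMADs, 7 of 11 latency genes, 5 of 6 receptor regulators and 8 of 9 co-repressors and ubiquitin ligases.

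BRG1 was higher in KO in both pairs at 8 of the 38 genes (23.9% of all genes) and lower in both at 3 (6.75%). Of the 8 target genes 3 were higher in both pairs, and the other 5 (Tgfbi, Snai1, Snai2, Klf10 and Acta2) were higher in KO at 16 cycles and lower at 20 cycles, by -0.72 to -7.28 points at 20 cycles. Id1, a dominant-negative helix-loop-helix factor, was at 10.8% (WT) and 24.1% (KO) at 16 cycles, then at 27.0% (WT) and 30.9% (KO) at 20 cycles. Ccn2, the connective tissue growth factor gene, was at 18.1% and 25.0%, then at 26.0% and 32.9%. The 3 lower in both pairs were the integrin subunit gene Itgb6 and the ubiquitin ligase genes Smurf2 and Trim33, whose differences ran from -0.09 to -2.39 points. BRG1 gene-end regions were present in all 4 libraries at 24 of the 38 (33.9% of all genes), including 7 of the 8 target genes, and Lap2alpha regions at 20 cycles in 32 of the 38 windows (71.5%).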

How the data were processed

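ChIP-seq region lists of 18 libraries were analysed, 1 per genotype, antibody and sonication length, grouped by sample title. Input samples (4) were not analysed here. Each deposited list gives interval positions (chromosome, start and end in base pairs), with no height or significance. The submitters' processing notes name the build GRCm38 and the tools MACS2 2.1.4, HOMER 4.11.1, bedtools, deepTools and SAMtools. What each tool did, the calling threshold, the control and any pooling: not given in the sources used here. Longer lists may reflect more reads or a looser threshold, so coverage is not an amount of protein.

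Intervals of width 0 were left out and overlapping intervals of a list merged (Python 3.11.15, numpy 2.4.6, pandas 2.3.3). Coverage was computed for the 21887 protein-coding genes of the RefSeq table, which gives no strand, so both gene ends were used. With 1 library per group no p-value was computed; differences are KO minus WT for each matched pair, and an SD is over pairs or libraries that differ in antibody or sonication. Interval functions were tested on simulated intervals. The 10 genes and the further lists were chosen with earlier results of these data known; all 10 genes are named, and of the 38 others those that differed the same way in all 4 lamin A/C pairs (at most 5 each way) or in both BRG1 pairs (at most 3 each way), of which 1 is not reported here. The comparison of list forms was chosen after the data had been seen. Alternatives were merging of near regions, only regions of 300 bp or more, lists cut to equal length by width within a pair, other windows and gene-end distances, each antibody or sonication length alone and the omission of each pair.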

Additional observations from a re-analysis of the deposited data

Results flagged for a closer look

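The difference between KO and WT pointed in opposite directions at the 2 sonication lengths for both chromatin remodellers. For BRG1 the mean coverage of the 10 genes differed by 4.47 percentage points at 16 cycles and by -2.19 at 20 cycles, a gap of 6.66 points. For CHD4 it differed by 5.74 points at 16 cycles and by -8.63 at 20 cycles, a gap of 14.4 points. The mean over all genes turned likewise, from 2.66 to -1.01 points for BRG1 and from 2.69 to -4.41 for CHD4, so the turn is not particular to the 10 genes. At 16 cycles KO was higher at 10 of 10 genes for BRG1 (70.5% of all genes) and for CHD4 (68.1%), and at 20 cycles lower at 8 for BRG1 (59.6%) and at 10 for CHD4 (76.5%). Each length is 1 library per genotype, so the difference between lengths was not tested. At 20 cycles the lists of WT and KO were of unlike form, and the part of that in the result cannot be told apart from genotype.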

How the results depend on the processing

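The mean lamin A/C difference of the 10 genes (0.33 points) was above 0 under each alternative run but moved with them: it was 0.0982 with regions of at least 300 bp, 0.166 with lists of equal length, 0.0638 with the E1 pairs only, 0.589 with the 3A6 pairs only, 0.502 and 0.151 with the pairs at 16 or 20 cycles only, 0.497 with 50 kb on each side and 0.143 to 0.435 when each pair was left out in turn. The number of genes with higher lamin A/C coverage in all pairs, 0 of 10, was 2 with 50 kb on each side, 4 with the pairs at 16 cycles only, 5 with the 3A6 pairs only and 0 to 2 when each pair was left out. It was 2 only without the E1 pair at 20 cycles, in which no window held a region. The number of genes higher in both BRG1 pairs, 2, was 1 with 50 kb on each side. The mean BRG1 difference (1.14 points) ran from -2.19 to 4.47 when either pair was left out. The mean CHD4 difference (-1.45 points) ran from -8.63 to 5.74 likewise and was 1.04 with lists cut to equal length by width within each pair; the cause was not tested. Lamin A/C gene-end regions in KO, at 2 genes, were at 1 with regions of at least 300 bp, with lists of equal length, with the 3A6 pairs only and with the E1 pairs only, at 0 with the pairs at 20 cycles only and at 4 within 5 kb of gene ends. Those in WT, at 1 gene, were at 0 with regions of at least 300 bp, with the pairs at 16 cycles only and with the E1 pairs only. The lamin A/C difference of Smad3 (0.149 points) was -0.048 with lists of equal length and ran from -0.0071 (without the 3A6 pair at 16 cycles) to 0.263 when each pair was left out. With lists of equal length BRG1 was higher in KO at 10 of 10 genes at 16 cycles and lower at 8 at 20 cycles. That cut drops only the narrowest regions of the longer list, so the part of list length was not tested.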

Other observations

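Marker genes of other cell types varied in the lamin A/C lists. At 4 of 8 such markers KO was higher than WT in each of the 4 lamin A/C pairs, and at none of 8 fibroblast markers. They were Krt5, a keratin of basal keratinocytes, at 0 in WT and 4.59% ± 4.24 in KO, Ptprc, the leukocyte gene for CD45, at 0 and 2.71% ± 1.49, Dct, a melanocyte enzyme gene, at 0 and 1.2% ± 0.75, and Cdh5, the endothelial cadherin gene, at 0 and 0.896% ± 0.695 (SD, n = 4 libraries each). The other 4 markers of the same cell types were at 0 in WT and higher in KO in fewer pairs. Krt14 was at 0.54% ± 1.08 in KO (1 pair), Pecam1 at 0.15% ± 0.3 (1 pair), Cd3e at 0.535% ± 1.07 (1 pair) and Mlana at 1.07% ± 1.49 (2 pairs). These values, and that of Cdh5, lay within the range of the TGF-beta genes (0 at Tgfb1 to 1.13% at Tgfbr1). A higher value in each pair was found for 2452 of all 21887 genes and for 0 of the 10 TGF-beta genes.

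BRG1 coverage of the fibroblast collagen genes differed from each other in direction at 20 cycles. For Col1a2 the WT values were 15.3% and 18.7% and the KO values 23.8% and 29.1%, for 16 and 20 cycles. For Col1a1 they were 8.69% and 42.8%, then 18.8% and 32.3%. The pair at 20 cycles sets lists of unlike form against each other for both genes.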
